A study of Arabidopsis thaliana with 14 samples.

Results

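H3K4me3, trimethylation of lysine 4 on histone H3, was mapped in transgenic wild-type (TWT) seedlings of Arabidopsis thaliana, and its peaks were set against every gene whose RNA differed between a fen1 mutant and TWT. FEN1 encodes flap endonuclease 1, which trims the single-stranded flaps left during DNA replication and repair. The peaks were all 15504 on chromosomes 1 to 5 out of 15540 in the deposited H3K4me3 list. The genes were all 1114 rows of the authors' deposited table. Genes were grouped by the position of the peaks into 3 classes: 533 with a peak over the annotated first base (5′ end covered), 66 with a peak elsewhere in the gene body, and 515 with no peak in the body.

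The groups used were fen1 RNA (2 libraries), TWT RNA (2 libraries) and TWT ChIP for H3K4me3, H3K27me3 and H3K9me2 (1 library each), from untreated whole seedlings of the C24 ecotype aged 10 days. No source used here says which transgene the TWT line carries, whether fen1 carries it too or what kind of mutation fen1 is, and none says that the 2 RNA libraries per genotype were grown separately. The table gives 1 value of FPKM (fragments per kilobase of transcript, scaled to library size) per genotype, so no spread between libraries can be shown, and the depth is unknown. A gene is called here where the authors' test called it, and the placement was measured in TWT alone. Genes are not replicates and 1 ChIP library has no replicate check, so the classes are described by counts, shares and medians with no test between them. Whole seedlings mix many cell types, so a change of RNA per cell and a change in the number of expressing cells cannot be told apart.

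In plants, as in yeast and animals, H3K4me3 sits on nucleosomes just downstream of the start of transcribed genes. It is laid down by SET-domain methyltransferases of the Trithorax type, such as ATX1 and SDG2 in Arabidopsis, and is removed by JmjC-domain demethylases such as JMJ14. It is read as a mark of genes in use, whereas H3K27me3, the mark of Polycomb repression, covers genes that are silent in a tissue.

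The authors' p and q values imply 20132 tested genes, of which 1114 (5.53%) were called at a q under 0.05. Of the tested genes 684 (3.40%) were called higher in fen1 and 430 (2.14%) lower. Every gene of the table was therefore called, and genes that were tested without a call have no coordinates in it, so how often an unchanged gene carries a covered 5′ end is not known here.

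FEN1 itself (AT5G26680, chromosome 5, 9311875 to 9315475, TAIR10) had a covered 5′ end. Its level was 22.7 FPKM in fen1 and 14.5 FPKM in TWT. The TWT peak had a score of 455 and covered the first 722 bp of the gene, 20.1% of its length. Peak scores are the authors' own values from the peak caller; no source used here names their scale, and they ran from 50.1 to 3233 over the nuclear peaks.

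H3K4me3 sat on the 5′ end of 47.8% of the changed genes (exact Clopper-Pearson 95% interval 44.9 to 50.8%). A peak elsewhere in the body was found for 5.92% (4.61 to 7.48%), and no peak for 46.2% (43.3 to 49.2%). These intervals, like all others here, cover counting error only. By chromosome, the share with a covered 5′ end was lowest on chromosome 4, at 41.9% (34.6 to 49.5%), and highest on chromosome 3, at 52.3% (45.4 to 59.2%), with overlapping intervals. Protein-coding genes made up 527 of the 533 covered genes. The others were 4 of the 9 RNA genes of other types, the 1 miRNA gene and 1 of 4 pseudogenes. Neither of the 2 transposable element genes in the table was covered.

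The peaks over 5′ ends were placed asymmetrically. They began a median of 217 bp upstream of the annotated start (quartiles 149 and 274 bp) and ran a median of 1279 bp downstream (quartiles 1011 and 1647 bp). In 508 of 533 genes the peak reached further downstream than upstream. The midpoint of the peak lay a median of 524.5 bp inside the gene. Over all 1114 genes the share under a peak was 5.75% at 500 bp upstream, 17.95% at 250 bp upstream and 47.8% at the start. It was highest at 500 bp downstream, at 51.0%, and declined to 24.5% at 1500 bp and 14.3% at 2000 bp, among genes long enough to reach that position. The share thus rose steeply just before the start and declined more slowly into the gene.

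**Figure D1:**
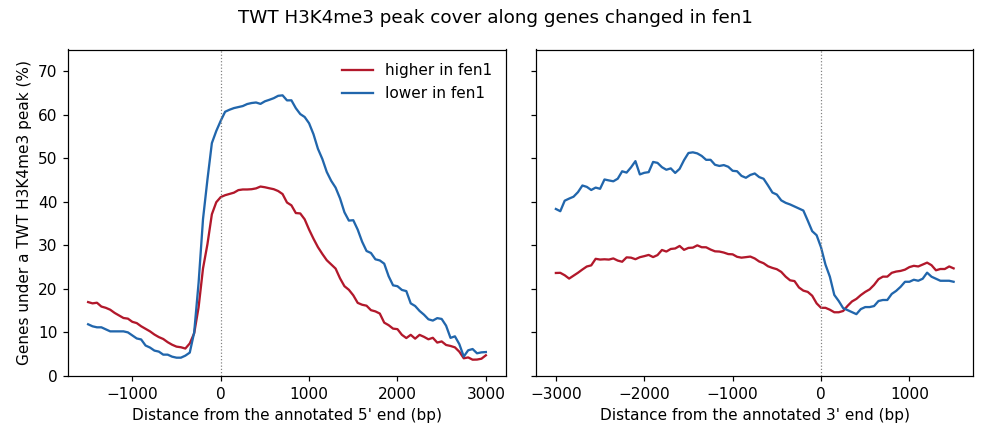
Share of changed genes under a TWT H3K4me3 peak (y axis, percent) by distance from the annotated 5′ end (left) and 3′ end (right), in bp along the direction of transcription, for the 684 genes higher in fen1 and the 430 genes lower in fen1; positions inside the gene count only genes long enough to hold them. Both lines climb within 500 bp before the start, to 41.1% of higher genes and 58.6% of lower genes at the start. The highest shares lie inside the gene, 43.5% at 450 bp for higher genes and 64.5% at 700 bp for lower genes.

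At the other end of the gene the mark was less frequent. Peaks covered the annotated 3′ end of 21.0% of the 1114 genes, against 47.8% for the 5′ end. The share at the 3′ end was 15.6% of the higher genes and 29.5% of the lower genes. Many of these were short genes lying wholly under 1 peak. Of the 533 genes with a covered 5′ end, 172 (32.3%) were covered from end to end and 203 (38.1%) also had a peak over the 3′ end.

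The length covered from the 5′ end, cut at the gene's end, had a Spearman's rho of 0.36 with gene length across the 533 genes. Over the 361 genes not covered to their end rho was 0.10. For the uncut downstream reach of the peak it was 0.12 over the 533 genes. The median covered length was 1173 bp (95% interval of the median by order statistics 1121 to 1231 bp). Its quartiles were 918 and 1529 bp and its range was 149 to 5058 bp. Genes with a covered 5′ end had a median length of 1815 bp (quartiles 1238 and 2600 bp), so the covered part was a median of 85.5% of the gene. TIL1, which encodes the polymerizing subunit of DNA polymerase epsilon, is 15949 bp long and had the smallest covered share, with 702 bp.

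The 5 genes covered furthest from the 5′ end encode transporters and metabolic enzymes. ABCG37, an ABC transporter that exports auxin precursors and coumarins, was covered over 5058 of its 6491 bp, with 61.2 FPKM in fen1 and 38.3 FPKM in TWT. AT3G62270, described in the table as a bicarbonate-type transporter, was covered over 3580 bp, with 56.4 FPKM in fen1 and 74.9 FPKM in TWT. The nitrate reductase gene NIA1 was covered over 3511 of 3643 bp, with 120 FPKM in fen1 and 170 FPKM in TWT. ABCB4, an auxin transporter of the root, had 2828 bp covered and 39.9 FPKM in fen1 against 21.4 FPKM in TWT. ADC2, arginine decarboxylase of polyamine synthesis, had 2740 bp covered and 353 FPKM in fen1 against 238 FPKM in TWT. All 5 were above 20 FPKM in both genotypes, and their RNA moved both ways.

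Genes with a covered 5′ end were the most highly expressed of the 3 classes. Their median level was 23.2 FPKM in fen1 and 20.6 FPKM in TWT. Genes with a peak elsewhere in the body had medians of 10.6 FPKM in fen1 and 8.58 FPKM in TWT. Genes with no peak had medians of 8.75 FPKM in fen1 and 5.29 FPKM in TWT. The interquartile ranges of the classes overlapped: the TWT quartiles were 8.82 and 55.8 FPKM with a covered 5′ end, and 1.93 and 13.9 FPKM with no peak.

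**Figure D2:**
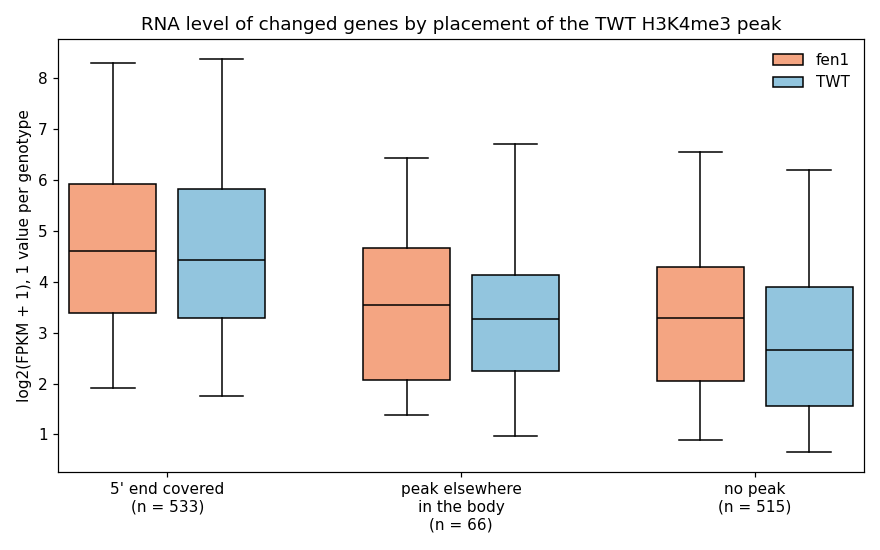
RNA level as log2(FPKM + 1) (y axis) in fen1 and in TWT, with 1 value per genotype and gene, by placement of the TWT H3K4me3 peak; boxes span the quartiles with the median as a line, and whiskers the 5th to 95th percentile of genes. The 533 genes with a covered 5′ end have the highest median in both genotypes, 23.2 FPKM in fen1 and 20.6 FPKM in TWT.

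The share of genes higher in fen1 differed between the classes. Of the 533 genes with a covered 5′ end, 281 were higher and 252 lower in fen1, a share of 52.7% higher (48.4 to 57.0%). Among genes with a peak elsewhere in the body 39 of 66 were higher, or 59.1% (46.3 to 71.0%). Among genes with no peak 364 of 515 were higher, or 70.7% (66.5 to 74.6%). Among genes changed at least 2-fold the classes lay closer, with 66.1% of 109 covered genes higher (56.4 to 74.9%) and 73.4% of 316 genes with no peak (68.2 to 78.2%). Seen from the other side, 41.1% of the higher genes (37.4 to 44.9%) and 58.6% of the lower genes (53.8 to 63.3%) had a covered 5′ end.

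With the 5′ end covered, the medians of the 2 directions lay close in fen1 and apart in TWT. The 281 higher genes had medians of 23.2 FPKM in fen1 and 13.5 FPKM in TWT. The 252 lower genes had medians of 23.5 FPKM in fen1 and 37.2 FPKM in TWT. With no peak, the 364 higher genes had medians of 10.1 FPKM in fen1 and 4.08 FPKM in TWT, and the 151 lower genes 4.50 FPKM in fen1 and 10.4 FPKM in TWT.

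Cover of the 5′ end was therefore counted within ranges of RNA level. By TWT level the share with a covered 5′ end climbed from 7.59% of 79 genes under 1 FPKM to 27.1% of 269 genes at 1 to 5 FPKM and 46.7% of 390 genes at 5 to 20 FPKM. It was 70.1% of 274 genes at 20 to 100 FPKM and 78.4% of 102 genes at 100 FPKM or more. In the middle ranges of TWT level, the intervals for higher and lower genes overlapped widely. At 5 to 20 FPKM in TWT these were 44.7% of 237 higher genes (38.3 to 51.3%) and 49.7% of 153 lower genes (41.5 to 57.9%). At 20 to 100 FPKM in TWT they were 69.1% of 136 higher genes (60.6 to 76.8%) and 71.0% of 138 lower genes (62.7 to 78.4%). At 100 FPKM or more in TWT the shares lay further apart, at 65.2% of 23 higher genes (42.7 to 83.6%) and 82.3% of 79 lower genes (72.1 to 89.96%). Below 5 FPKM in TWT the order was the other way: 28.4% of 211 higher genes (22.5 to 35.0%) and 22.4% of 58 lower genes (12.5 to 35.3%) were covered at 1 to 5 FPKM, and under 1 FPKM 6 of 77 higher genes and 0 of 2 lower genes were. The median score of the covering peaks had no single order either. At 20 to 100 FPKM in TWT it was 921 for higher genes and 1758 for lower genes, at 5 to 20 FPKM 675 for higher and 934 for lower, at 1 to 5 FPKM 517 for higher and 430 for lower, and at 100 FPKM or more 1942 for 15 higher genes and 1505 for 65 lower genes.

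Ranges of the fen1 level gave a different picture. At 5 to 20 FPKM in fen1 the 5′ end was covered in 38.6% of 267 higher genes (32.7 to 44.7%) and 63.3% of 150 lower genes (55.1 to 71.0%). At 20 to 100 FPKM in fen1 it was covered in 56.9% of 218 higher genes (50.0 to 63.6%) and 78.4% of 111 lower genes (69.6 to 85.6%). At an identical fen1 value a lower gene has a higher TWT level than a higher gene, but this need not hold across a whole range. The gap between the directions was 24.8 and 21.5 percentage points in these 2 ranges of fen1 level. In the same ranges of TWT level it was 4.95 and 1.90 points. At 100 FPKM or more it was 22.1 points by fen1 level and 17.1 points by TWT level. The levels come from the same table as the direction, so this is a description of where the mark was and not a test.

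**Figure D3:**
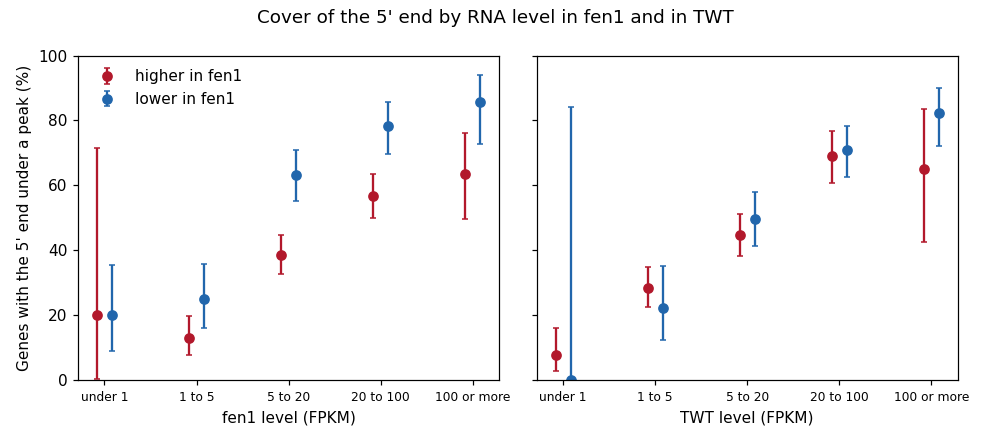
Share of genes with the 5′ end under a TWT H3K4me3 peak (y axis, percent) by range of RNA level in fen1 (left) and in TWT (right), for genes higher and lower in fen1; bars are exact Clopper-Pearson 95% intervals. By fen1 level the lower genes lie above the higher genes from 1 FPKM upwards, whereas by TWT level the 2 directions lie within 4.95 percentage points of each other between 5 and 100 FPKM.

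Among these called genes, changes were smaller where the 5′ end was covered. The log2 fold changes of the authors' deposited table had a median size of 0.67 with a covered 5′ end (quartiles 0.53 and 0.94), 0.82 with a peak elsewhere in the body and 1.16 with no peak (quartiles 0.82 and 1.78). At least 2-fold changes were listed for 109 of the 533 genes with a covered 5′ end (20.5%), 22 of the 66 with a peak elsewhere (33.3%) and 316 of the 515 with no peak (61.4%). Genes at 0 in 1 genotype have no defined fold change, so they are in the class totals but in no 2-fold count here. Of all tested genes 1.59% were called at least 2-fold higher and 0.631% at least 2-fold lower. Level moved with this: across 1104 genes with a fold change, TWT level and the size of the change had a Spearman rho of −0.59. By the authors' deposited table, the median size at a TWT level of 20 to 100 FPKM was 0.62 over 191 covered genes and 0.91 over 72 genes with no peak. At 5 to 20 FPKM it was 0.70 over 182 covered genes and 0.91 over 176 with no peak. At 1 to 5 FPKM it was 1.00 over 72 covered genes and 1.40 over 180 with no peak. At 100 FPKM or more it was 0.50 over 80 covered genes and 0.64 over 17 with no peak. Under 1 FPKM, where 5 covered genes had a fold change, it was 1.95 against 1.90 over 64 genes with no peak. The part of level in this difference was not tested beyond these ranges. Only called genes are listed, and whether the call takes in genes of low level only with large changes was not tested.

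The 4 largest rises of genes with a covered 5′ end, among those above 0 in both genotypes, lay under peaks of low score. AT1G12030, of unknown function, had 8.85 FPKM in fen1 and 0.89 FPKM in TWT under a peak of score 203. AT2G30766 had 283 FPKM in fen1 and 36.9 FPKM in TWT, and its 955 bp lay wholly under a peak of score 102. PYD4, of pyrimidine breakdown, had 9.99 FPKM in fen1 and 1.92 FPKM in TWT under a peak of score 139. AT2G14247 had 157 FPKM in fen1 and 30.6 FPKM in TWT under a peak of score 99.1. All 4 scores lay below the lower quartile of 357 for covered genes. Left out of this order was 1 higher covered gene at 0 in TWT and under 1 FPKM in fen1. It has no fold change, and its peak had a score of 1978. AT1G12030 and PYD4 also had an H3K27me3 peak over the 5′ end.

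Among covered genes that fell and were above 0 in both genotypes, the glycine-rich protein gene GRP-3 (AT2G05520) had the largest fold change. It had 35.6 FPKM in fen1 against 2033 FPKM in TWT. Covered genes that fell to 0 FPKM in fen1 have no fold change and are left out of this order. The 956 bp of GRP-3 lay wholly under a peak of score 503. GRP-3 has similar neighbours, and no source used here says how reads were divided between such copies. AT2G33830, annotated as dormancy/auxin associated, had 9.10 FPKM in fen1 and 155 FPKM in TWT, with 832 of its 868 bp under a peak of score 1045. The ankyrin repeat gene AT4G11000 had 0.64 FPKM in fen1 and 5.67 FPKM in TWT under a peak of score 126. AT4G06534 had 0.25 FPKM in fen1 and 2.24 FPKM in TWT under a peak of score 135. AT4G06534 had an H3K27me3 peak over its 5′ end, and GRP-3 had one in the body. The 4 falls thus spanned TWT levels from 2.24 to 2033 FPKM.

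Peak score followed the RNA level loosely. Over the 533 covered genes Spearman's rho was 0.21 between score and fen1 level and 0.31 between score and TWT level. These correlations are across genes of 1 ChIP library and 1 RNA table. The score reached a common value of 3100 in 53 genes and exceeded it in 6, so it does not order the strongest peaks; below 3100 rho was 0.15 with the fen1 level and 0.25 with the TWT level over 474 genes. The length covered from the 5′ end had a rho of 0.13 with the fen1 level and 0.16 with the TWT level over the 533 genes. By direction, rho with the TWT level was 0.25 over the 281 higher genes and 0.0062 over the 252 lower genes, and rho with the fen1 level was 0.21 over the higher and 0.048 over the lower genes. Short genes cap that length: over the 361 genes not covered to their end the values were 0.29 and 0.34. For the uncut downstream reach, rho with the TWT level was 0.27 over the higher and 0.16 over the lower genes. With the fen1 level it was 0.25 over the higher and 0.18 over the lower genes. Score and downstream reach of the peak had a rho of 0.49.

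Genes of lower score were more often higher in fen1 and changed more, though they also had lower TWT levels; the part of level was not tested. The covered genes were split by score into 3 groups of nearly equal size. In the group with the lowest scores, 56.7 to 523, 114 of 178 (64.0%) were higher in fen1, with medians of 15.8 FPKM in fen1 and 12.9 FPKM in TWT. In the middle group, with scores of 531 to 1562, 94 of 177 (53.1%) were higher, with medians of 19.5 FPKM in fen1 and 17.4 FPKM in TWT. In the group with the highest scores, from 1570, 73 of 178 (41.0%) were higher, with medians of 33.2 FPKM in fen1 and 36.4 FPKM in TWT. At least 2-fold changes made up 27.5%, 22.0% and 11.8% of these groups in the same order. The median score was 701 for higher genes (quartiles 258 and 1583) and 1243 for lower genes (quartiles 521 and 2379).

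**Figure D4:**
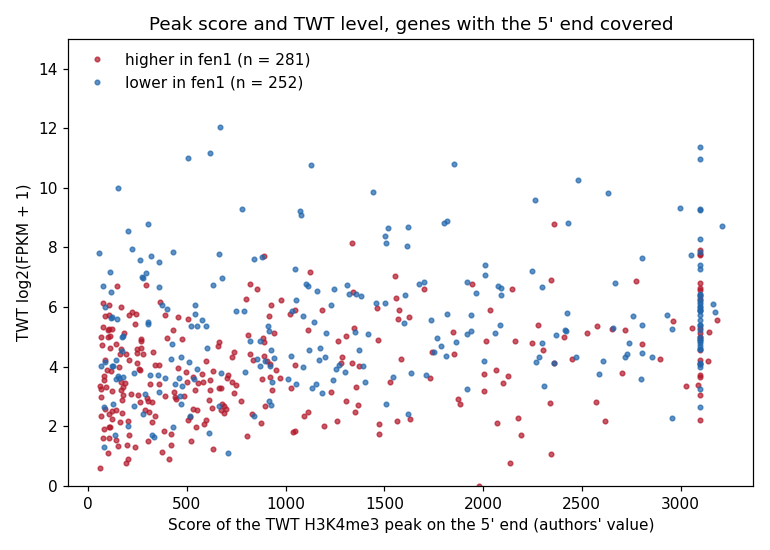
Score of the TWT H3K4me3 peak over the 5′ end (x axis, the authors' value from the peak caller) and TWT level as log2(FPKM + 1) (y axis) for the 281 genes higher and the 252 genes lower in fen1, 1 point per gene. Points spread widely at every score (Spearman's rho 0.31), and 53 genes share the score of 3100.

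The following 5 genes were among the 6 covered genes with a score above 3100, and their order by score is not read as an order of the mark. They were CP5, a lipid transport family gene (score 3212, 304 FPKM in fen1 and 420 FPKM in TWT), AT5G17380, a thiamine pyrophosphate enzyme gene (score 3185, 67.7 FPKM in fen1 and 46.4 FPKM in TWT), and the transcription factor gene GATA4 (score 3175, 30.4 FPKM in fen1 and 55.8 FPKM in TWT). The others were the tubby-like protein gene TLP2 (score 3163, 48.8 FPKM in fen1 and 68.4 FPKM in TWT) and SERAT2;1, a serine acetyltransferase of cysteine synthesis (score 3146, 48.0 FPKM in fen1 and 34.5 FPKM in TWT).

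The 532 peaks over the 5′ ends of changed genes were set beside the peaks outside the listed genes, with no test. Their median score was 928 (quartiles 356 and 2012), against 1214 (quartiles 586 and 1962) for the 14866 peaks outside the listed genes. They were wider, with a median of 1538 bp (quartiles 1240 and 1948 bp) against 1368 bp (quartiles 1193 and 1655 bp). The interquartile ranges overlapped in both measures. A single peak covered the starts of 2 listed genes, those of the ferredoxin gene FED A (AT1G60950; 1652 FPKM in fen1 and 2629 FPKM in TWT) and of IRT3 (AT1G60960; 18.2 FPKM in fen1 and 12.3 FPKM in TWT). These lie on opposite strands, had a shared score of 3100 and changed in opposite directions, so 1 peak score stood beside very different RNA levels.

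Few genes lay at the border of the covered class. Just inside it lay the cysteine proteinase gene AT2G27420, whose start was 2 bp from the peak edge (40.7 FPKM in fen1 and 29.7 FPKM in TWT), and the cytokinin-activating enzyme gene LOG7 at 17 bp (14.5 FPKM in fen1 and 9.75 FPKM in TWT). Just outside it lay the serine protease inhibitor gene AT2G38870, whose peak began 1 bp past the start (84.8 FPKM in fen1 and 54.8 FPKM in TWT), and the peroxidase gene AT2G37130 at 2 bp (64.4 FPKM in fen1 and 103 FPKM in TWT). Only 19 of the covered genes and 12 of the 581 others had a peak edge within 50 bp of the start.

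The 66 genes with a peak elsewhere in the body were of 3 kinds, split after their values were seen. In 27 the peak began within 250 bp of the start; their medians were 11.6 FPKM in fen1 and 14.6 FPKM in TWT, and 12 were higher in fen1. In 23 the peak began later and reached the 3′ end; their medians were 5.42 FPKM in fen1 and 4.94 FPKM in TWT, and 18 were higher. In the other 16 it began later and ended inside the gene, with medians of 14.6 FPKM in fen1 and 12.2 FPKM in TWT, and 9 were higher. The median of the genes with a peak at the 3′ end was near that of genes with no peak in TWT (5.29 FPKM) and below it in fen1 (8.75 FPKM). Whether such a peak belongs to a neighbouring gene was not tested.

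Several of the largest changes in this class were of the 3′ kind. GEX1, a gamete-expressed gene, had 2.33 FPKM in fen1 and 0.13 FPKM in TWT, and its peak began 2265 bp into its 2437 bp. The glutathione transferase gene GSTL1 had 27.6 FPKM in fen1 and 4.94 FPKM in TWT, with a peak from 1703 bp of its 1808 bp. AT5G24640 had 11.2 FPKM in fen1 and 1.78 FPKM in TWT, with a peak from 437 bp of its 487 bp. Another peak ended 77 bp upstream of its start. AT5G52790, of the CBS domain family, had 3.11 FPKM in fen1 and 9.33 FPKM in TWT, with a peak from 2621 bp of its 2643 bp. By contrast the peak of GSTU9, another glutathione transferase gene, began 164 bp into the gene (16.3 FPKM in fen1 and 3.15 FPKM in TWT). The same held for the receptor-like protein gene RLP19 at 133 bp (1.28 FPKM in fen1 and 5.30 FPKM in TWT) and for AT4G19430 at 63 bp (0.70 FPKM in fen1 and 5.12 FPKM in TWT). The oxygenase gene AT1G52820 was again of the 3′ kind, with a peak from 615 bp of its 1245 bp that reached the 3′ end. It had 2.76 FPKM in fen1 and 14.1 FPKM in TWT.

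Genes with no H3K4me3 peak in the body included the largest rise and the largest fall among genes above 0 in both genotypes, CRU3 and GSTF14. Their starts lay a median of 3566 bp from the nearest peak (quartiles 2026.5 and 6015 bp), and 44 of 515 lay within 1000 bp of one. CRU3, which encodes a cruciferin seed storage protein, had 7.65 FPKM in fen1 and 0.33 FPKM in TWT, and the nearest peak ended 433 bp upstream. The cupin gene AT5G38910 had 85.8 FPKM in fen1 and 5.41 FPKM in TWT, with the nearest peak 6923 bp away. BHLH100, a transcription factor gene of the low-iron response, had 28.4 FPKM in fen1 and 1.91 FPKM in TWT. AT1G47980 had 3.48 FPKM in fen1 and 0.24 FPKM in TWT.

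Among the falls with no peak were genes that were well expressed in TWT. The glutathione transferase gene GSTF14 had 0.54 FPKM in fen1 and 64.7 FPKM in TWT, with no H3K4me3 peak within 1823 bp of its start. The RNA gene AT1G67105 had 0.88 FPKM in fen1 and 44.2 FPKM in TWT, with the nearest peak 7884 bp away. The extensin genes EXT6 (0.92 FPKM in fen1 and 19.1 FPKM in TWT) and AT4G08410 (0.10 FPKM in fen1 and 1.49 FPKM in TWT) share similar repeats, so their levels are uncertain. In all, 72 genes at 20 to 100 FPKM in TWT and 17 at 100 FPKM or more had no called peak in the body. Whether the mark lies below the calling threshold in such genes, or in few of the cells, was not tested.

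The other 2 marks mapped in TWT were distributed unevenly over the classes. An H3K27me3 peak touched the body of 75 of the 533 genes with a covered 5′ end (14.1%), 16 of the 66 with a peak elsewhere (24.2%) and 321 of the 515 with no H3K4me3 peak (62.3%). At the first base itself the shares with H3K27me3 were 8.82%, 13.6% and 39.4% in the same order. With the 5′ end covered by H3K4me3, H3K27me3 was in the body of 47 of 281 higher genes (16.7%) and 28 of 252 lower genes (11.1%). With an H3K4me3 peak elsewhere it was in 28.2% of 39 higher and 18.5% of 27 lower genes. The order was the other way with no H3K4me3 peak, at 214 of 364 higher genes (58.8%) and 107 of 151 lower genes (70.9%). H3K9me2, the mark of silent heterochromatin, touched 3 of the 533 covered genes (0.563%) and 27 of the 515 genes with no H3K4me3 peak (5.24%). Overlap of 2 marks in whole seedlings does not show that they lie in the same cells.

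The DNA damage response is started by the kinases ATM and ATR and the transcription factor SOG1, and it slows the cell cycle and induces repair genes. Of 27 genes on the list, 16 (59.3%) were called higher, where 3.40% of all tested genes were; none was called lower and 11 were not called. The list was put together with earlier results of these data known, so the count is not independent evidence. Of the 16, 9 had a covered 5′ end and 7 had no peak; over all higher genes 41.1% were covered and 53.2% had no peak.

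The covered genes included 3 of nucleotide supply. TSO2, a small subunit of ribonucleotide reductase (AT3G27060, chromosome 3, 9979866 to 9981295, TAIR10), had 328 FPKM in fen1 and 96.9 FPKM in TWT. Its whole 1430 bp lay under a peak of score 1698. RNR1, the large subunit, had 62.7 FPKM in fen1 and 37.2 FPKM in TWT under a peak of score 105, low for its level. The thymidine kinase gene TK1A had 42.2 FPKM in fen1 and 12.6 FPKM in TWT, with 827 bp covered.

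The poly(ADP-ribose) polymerase gene PARP2 (AT4G02390) had 24.0 FPKM in fen1 and 6.73 FPKM in TWT, and PARP1 (AT2G31320) had 12.8 FPKM in fen1 and 7.14 FPKM in TWT. XRI1, an X-ray induced gene needed in meiosis, had 32.4 FPKM in fen1 and 11.5 FPKM in TWT. All 3 peaks began 129 to 301 bp before the start. WEE1, a kinase that holds the cell cycle, had 5.71 FPKM in fen1 and 3.40 FPKM in TWT.

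RAD54, a chromatin remodeller of recombination, had 5.01 FPKM in fen1 and 3.33 FPKM in TWT under a peak of score 2073. That peak reached 1231 bp upstream of the start and 841 bp into the gene. TIL1 of the replication list was alike, with 11.3 FPKM in fen1 and 7.32 FPKM in TWT under a peak of score 3100 that reached 2268 bp upstream. These were 2 of the 25 covered genes whose peak reached at least as far upstream as downstream, and whether such a peak also covers a neighbouring start was not tested.

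Of the 7 damage genes with no peak, 4 act on the cell cycle. SMR7, an inhibitor of cyclin-dependent kinases (AT3G27630, chromosome 3, 10231116 to 10231418, TAIR10), had 70.7 FPKM in fen1 and 5.50 FPKM in TWT. The nearest H3K4me3 peak lay 2985 bp from its start. SMR4, of the same family, had 16.0 FPKM in fen1 and 3.58 FPKM in TWT. CYCB1;1, a mitotic cyclin gene induced by DNA breaks, had 22.0 FPKM in fen1 and 8.64 FPKM in TWT, and NAC044, a transcription factor of the G2 arrest, had 8.30 FPKM in fen1 and 2.18 FPKM in TWT.

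The other 3 damage genes with no peak act in repair. BRCA1, of homologous recombination, had 28.3 FPKM in fen1 and 5.29 FPKM in TWT, and a peak of H3K27me3 and of H3K9me2 touched its body. GMI1, induced by gamma rays, had 11.3 FPKM in fen1 and 2.69 FPKM in TWT, with H3K27me3 in its body. COM1, which processes broken ends, had 6.85 FPKM in fen1 and 2.50 FPKM in TWT. The authors' deposited table gives log2 fold changes for the 7 genes with no peak from 1.35 to 3.68 (median 2.06) and for the 9 covered genes from 0.59 to 1.84 (median 1.49). Their TWT levels were 2.18 to 8.64 FPKM with no peak and 3.33 to 96.9 FPKM with a covered 5′ end. SMR7, SMR4, CYCB1;1, NAC044 and COM1 had no H3K27me3 peak in the body. Over all higher genes with no H3K4me3 peak, 58.8% had an H3K27me3 peak there. Of the covered damage genes named here, RAD54 had one.

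**Figure D5:**
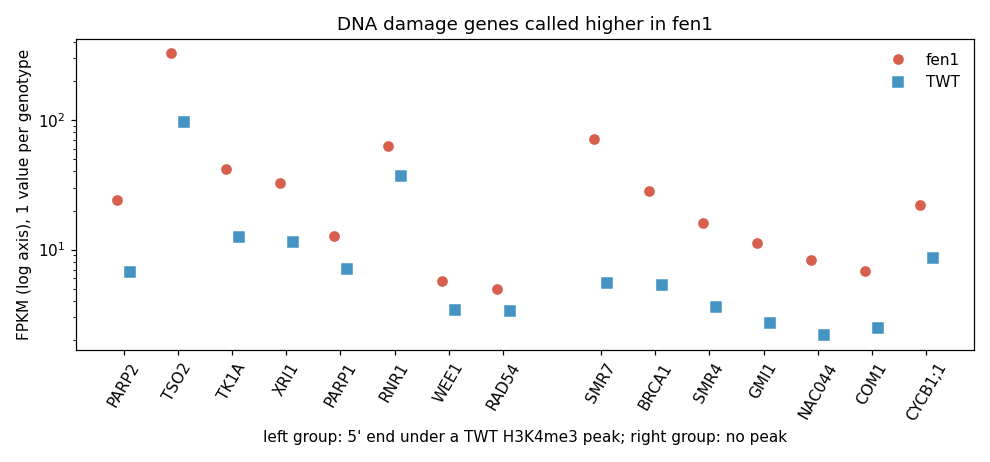
Level of 15 of the 16 DNA damage genes called higher in fen1 (y axis, FPKM on a log axis), with 1 value each in fen1 and in TWT and no replicate spread, for 8 of the 9 genes with a covered 5′ end (left) and the 7 with no TWT H3K4me3 peak (right), each ordered by fold change. In TWT no gene without a peak exceeds 8.64 FPKM.

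The remaining lists held few called genes. Of 21 DNA replication genes 2 (9.52%) were called, FEN1 and TIL1, against 5.53% of all tested genes. Both were higher and had a covered 5′ end, as did 41.1% of all higher genes. Of 17 genes that write or erase H3K4 methylation, among them ATX1, SDG2 and JMJ14, none was called by the authors' test. Of all tested genes 5.53% were called, and with only 17 genes none called is near that share. The table holds no uncalled genes, so their count at an unadjusted p is not known. Of 11 photosynthesis genes 4 (36.4%) were called, all lower, where 2.14% of all tested genes were, but this list too was made with earlier results known. These 4, PSAD-2, PSAF, FED A and LHB1B1, all had a covered 5′ end and lay under the peak for their whole length. Over all lower genes 58.6% were covered. At 100 FPKM or more in TWT, where these 4 lay, 82.3% of 79 lower genes were. Of all 533 covered genes 32.3% were covered from end to end. PSAF, a subunit of photosystem I, had 1371 FPKM in fen1 and 2024 FPKM in TWT under a peak of score 3100. LHB1B1, a light-harvesting protein gene with near-identical copies, had 1579 FPKM in fen1 and 2279 FPKM in TWT under a peak of score 618.

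Of 9 defence genes 2 (22.2%) were called higher and 2 (22.2%) lower, against 3.40% and 2.14% of all tested genes. Of these 4, 1 had a covered 5′ end and 3 had no peak, where 46.2% of all listed genes had none. PR1, a marker of salicylic acid signalling, had 5.67 FPKM in fen1 and 28.7 FPKM in TWT; it had no H3K4me3 peak and H3K27me3 over its start. PR5 (11.98 FPKM in fen1 and 29.8 FPKM in TWT) and PBS3 of salicylic acid synthesis (11.4 FPKM in fen1 and 5.13 FPKM in TWT) had no H3K4me3 peak either. CBP60G, a transcription factor of the same pathway, had a covered 5′ end with 1835 bp under a peak of score 118 (15.9 FPKM in fen1 and 8.04 FPKM in TWT). Of 6 seed genes 3 (50%) were called, all higher, against 3.40% of all tested genes; both lists were made with earlier results known. The seed genes were CRU3, the cruciferin gene CRA1 (11.996 FPKM in fen1 and 2.61 FPKM in TWT) and the oleosin gene OLEO2 (3.62 FPKM in fen1 and 0.96 FPKM in TWT). None of these 3 had an H3K4me3 peak, as was the case for 53.2% of all higher genes, and each had an H3K27me3 peak in the body. Of the 364 higher genes with no H3K4me3 peak, 58.8% had an H3K27me3 peak in the body.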

How the data were processed

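RNA-seq and ChIP-seq covered 14 samples, grouped by their titles; 4 were RNA libraries and 10 ChIP or input libraries. TAIR10, Cuffdiff 2.1.1, TopHat2 2.1.1, SAMtools and Bowtie 0.12.9 appear in the submitters' processing notes, with no role or order. The authors' deposited RNA table has the layout of Cuffdiff; its header names no unit, and its 2 level columns were read as FPKM that the authors combined over the libraries of a genotype. Its log2 fold changes, per the file headers, are fen1 over TWT with no pseudocount, undefined for 5 genes at 0 in TWT and 5 at 0 in fen1. The deposited p-values and q-values were used as given, and no test was added. Each deposited peak list gives positions and a score per peak; the deposited peak names begin with MACS, but its version, control and settings, the strand handling and the depth appear in no source used here. Fen1 ChIP, H3 and input libraries were not analysed here.

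BED starts were converted to 1-based positions. A 5′ end was covered where a peak held the first annotated base on the gene's strand, and the covered length ran from there to the peak's end, cut at the gene's end; a body peak needed 1 bp. Shares have exact Clopper-Pearson and medians order-statistic 95% intervals. The placement was tested on constructed genes and peaks. Python 3.11.15, pandas 2.3.3 and SciPy 1.17.1 were used. Symbols came from a RefSeq table of TAIR10.1 (1113 of 1114 matched), used for names alone. The 6 gene lists held 91 entries, 69 matched by symbol, 17 by synonym and 5 by locus number. Named were FEN1, the 4 largest changes per class and direction above 0 in both genotypes with at least 1 FPKM in one, the 5 longest covers, the 5 best scores, the genes nearest a peak edge, and called list members (of the other lists the 3 largest changes per direction). 1 list member is not reported here by name. Members and lists were chosen with earlier results of these data known. Planned promoter sequences and motifs were not used here. Alternatives were 9 other settings of the 5′ window, peaks and gene set, and a pseudocount of 0.1 for the ranks.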

Additional observations from a re-analysis of the deposited data

Results flagged for a closer look

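Peaks were also listed on the chloroplast genome, which carries no histones and which the placement did not use. The H3K4me3 list held 36 of them (0.232% of its peaks), with scores of 54.1 to 1089 and a median of 147, against a median of 1204 for nuclear peaks. The H3K27me3 list held 38 and the H3K9me2 list 6, and the H3K9me2 list also had 1 on the mitochondrial genome. The cause was not tested. These peaks entered no gene class, and 27 of the 533 covered genes had a nuclear peak with a score under 100.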

How the results depend on the processing

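Of 73 comparisons of 10 results with another setting, 5 could not differ by construction; of the other 68, 53 stayed within the counting interval of the reported value (for Spearman's rho, within 0.1). The order of the classes held between covered and no-peak genes, but the class with a peak elsewhere changed place: with 500 bp either side it was 74.2% higher against 70.5% for no peak, with a body overlap of at least 200 bp 50% against 52.7% for covered genes, and among genes changed at least 2-fold its TWT median was below that of the no-peak class. Among genes changed at least 2-fold, the 5′ end was covered in 24.4%, 66.1% of covered genes and 72.7% of genes with a peak elsewhere were higher in fen1, TWT medians were 8.82, 2.73 and 3.11 FPKM for the covered, elsewhere and no-peak classes, and the median covered length was 1044 bp; the direction shares of covered and unmarked genes (73.4%) were then closer than the reported 52.7% and 70.7%. At a q under 0.01, 60.3% of covered genes were higher. A peak within 500 bp on either side gave 52.2% covered, with 31 genes left with a peak elsewhere. With at least 1 FPKM in both genotypes, 52.1% were covered and the no-peak TWT median was 6.65 FPKM. For genes of at least 1000 bp that median was 4.50 FPKM, the covered length 1277.5 bp and rho of covered length with TWT level 0.31, against 0.16. The cause of these shifts was not tested. Of the 65 genes chosen by the naming rule, 5 became covered with a window of 250 bp, 7 with 500 bp either side, and AT2G14247 lost its peak at a minimum score of 100. The setting without head-to-head neighbours was not run, since the names table has no strand. No paired analysis was possible because the RNA table has 1 value per genotype, and leaving out a library was not possible for the same reason. Depth is unknown, so levels of short or low genes are the least certain.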
